A study of Mus musculus with 4 samples.

Results

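The annexins Anxa1, Anxa2, Anxa3, Anxa4, Anxa5, Anxa6, Anxa7 and Anxa11 and the galectin gene Lgals3 were picked by symbol from an expression table of lung tumour cells. All 9 symbols were among its 17746, and all 9 passed the filter on low counts. The cells came from RPΔG mice, which carry Rb1fl/fl and Trp53fl/fl alleles and the knock-in reporter GFP-LC3-RFP-LC3ΔG, and which develop lung tumours resembling small cell lung cancer. Live (DAPI-negative) cells positive for EpCAM and RFP were sorted into a GFP-positive and a GFP-negative fraction, with 2 RNA-seq libraries of each. By the labels, both groups share these alleles, the reporter and the epithelial gate, and were separated by GFP. The sources used here do not give how the floxed alleles were recombined, how old the mice were or whether tumours were pooled.

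The comparison concerns tumour cells of unequal autophagic flux, but the sources disagree on its direction. The sample titles attach high flux to the GFP-positive fraction, whereas the description of the experiment attaches it to the GFP-negative fraction. Groups are called by GFP status here and no direction for flux is read. A negative change means a lower level in the GFP-negative group. No label says that the 2 libraries of a fraction came from different mice, so p-values measure the spread between these libraries, which may be technical.

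Annexins are proteins that bind acidic phospholipids when calcium rises, through a conserved core of repeats, and differ mostly in their N-terminal tails. When a membrane is torn, entering calcium draws several of them to the wound, where they take part in plugging or shedding it. Galectin-3, the product of Lgals3, is a lectin that binds galactose-containing sugars. It gathers on damaged lysosomes whose inner sugar chains become exposed, and it is also a classical surface antigen of macrophages. In small cell lung cancer, Anxa1 and Anxa2 are often listed among the genes of cells outside the neuroendocrine state.

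The upstream sequences of the 4 genes with the highest levels per length are shown because these genes carry most of the signal described below. They are the 150 bases before the RefSeq transcription start (GRCm38.p6, the build of mm10), written 5′ to 3′ on the gene's strand. Capitals mark a TATA box (TATAAA), a GC box (GGGCGG) or an AP-1 motif (TGANTCA), each searched on both strands.
Lgals3 (chr14:47373710-47373859, plus strand): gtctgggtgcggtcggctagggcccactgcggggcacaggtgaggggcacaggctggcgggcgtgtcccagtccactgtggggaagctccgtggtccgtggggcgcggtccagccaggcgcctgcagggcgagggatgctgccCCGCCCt
Anxa5 (chr3:36475888-36476037, minus strand): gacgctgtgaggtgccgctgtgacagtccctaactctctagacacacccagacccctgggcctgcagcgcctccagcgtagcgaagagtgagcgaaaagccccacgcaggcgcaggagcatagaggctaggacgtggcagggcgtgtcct
Anxa1 (chr19:20390672-20390821, minus strand): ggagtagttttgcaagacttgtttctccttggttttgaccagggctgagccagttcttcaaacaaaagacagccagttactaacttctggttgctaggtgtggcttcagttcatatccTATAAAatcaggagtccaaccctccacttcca
Anxa2 (chr9:69453533-69453682, plus strand): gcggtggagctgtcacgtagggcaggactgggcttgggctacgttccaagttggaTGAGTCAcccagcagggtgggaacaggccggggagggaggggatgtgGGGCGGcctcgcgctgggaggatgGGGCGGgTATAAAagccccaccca

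RefSeq promoters matched 7 of the 9 genes, with 9 promoters in all; Anxa3 and Anxa6 had none. The Anxa1 and Anxa2 windows each held a TATA box, which 7.57% of 32851 promoter windows of that length also hold. An AP-1 motif was found in Anxa2 only, against 4.24% of windows, and the GC box in 5 of the 9 windows (those of Anxa2, Anxa7, Anxa11 and Lgals3), against 28.6%. CACGTG, the core of the motif bound by lysosomal regulators of the TFEB family, occurred in 1 window, of Anxa7, against 4.3%. The Anxa1 and Lgals3 windows had GC contents of 44.67% and 74.67%. A match describes letters and not binding. The Lgals3 and Anxa1 windows lie inside the gene spans given below, which are from GENCODE, and the Anxa2 and Anxa5 windows overlap theirs. The Lgals3 window, from 47373710 to 47373859, lies well downstream of the GENCODE start at 47367751.

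Libraries held 51994432 to 73997175 counts. GFP-positive replicate 1 stood apart: 11683 of the 17746 symbols had 0 counts there, against 129 to 2036 in the other libraries. Epcam was present in every library (65.9 to 255 CPM, counts divided by library size after TMM scaling). Of 20 neuroendocrine genes, 8 had 0 counts in GFP-positive replicate 1 and none in the other 3 libraries. Chga, a granin of the neuroendocrine granule that was picked once its values were known, was at 0 CPM in that library, and at 94.1 to 494 CPM in the others. Each pair of values that follows lists replicate 1 first and replicate 2 second, with GFP (GFP-positive) or without GFP (GFP-negative).

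For 6 of the 9 genes the groups did not overlap, with every GFP-negative value the lower. These 6 were Anxa1, Anxa2, Anxa4, Anxa5, Anxa6 and Lgals3. None of the 9 passed the quasi-likelihood test of edgeR after Benjamini-Hochberg adjustment (adjusted p = 1.0 for each), where 0.0982% of the 16301 tested genes did (0.092% lower and 0.00613% higher). At an unadjusted edgeR p under 0.05 the count was 3 of 9, Lgals3, Anxa1 and Anxa2, all lower in the GFP-negative group. Over all tested genes the shares were 0.761% in that direction and 3.1% in either. The share among abundant genes alone was not computed at this threshold. With limma on log2(FPKM + 0.1) 1 of the 9 passed, Lgals3, and with DESeq2's Wald test 0 passed, and 0.258% of genes passed in each. Together the 9 genes made up 0.835% and 0.405% of all counts with GFP and 0.0854% and 0.232% without GFP.

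The count of 6 has to be read against other abundant genes. Genes apart in that direction made up 6.63% of those tested, genes apart with GFP-negative higher 25.2%, and both 31.8%. The lower share was 18.4% among the 5492 tested genes with counts in all 4 libraries, and 26% among the 2812 of these with a mean of 50 CPM or more (higher: 13.2% and 7.29%). The 6 genes belong to this last set. Its median log2 change was -0.80, while the median of all tested genes was 0.91 and that of the 9 genes -1.66. Fitted changes were below 0 for 7 of the 9, against 53.3% of the genes with counts in all 4 libraries and 67.9% of the abundant ones. Anxa7 and Anxa11, whose changes were above 0, lie outside both sets. The number apart was 6 under DESeq2 size factors too (5.74% of all tested genes), and 5 under library totals (4.53%), the authors' FPKM (4.53%) and upper quartile scaling (8.72%). Anxa4 overlapped under library totals and FPKM, and Anxa2 under upper quartile scaling.

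**Figure D1:**
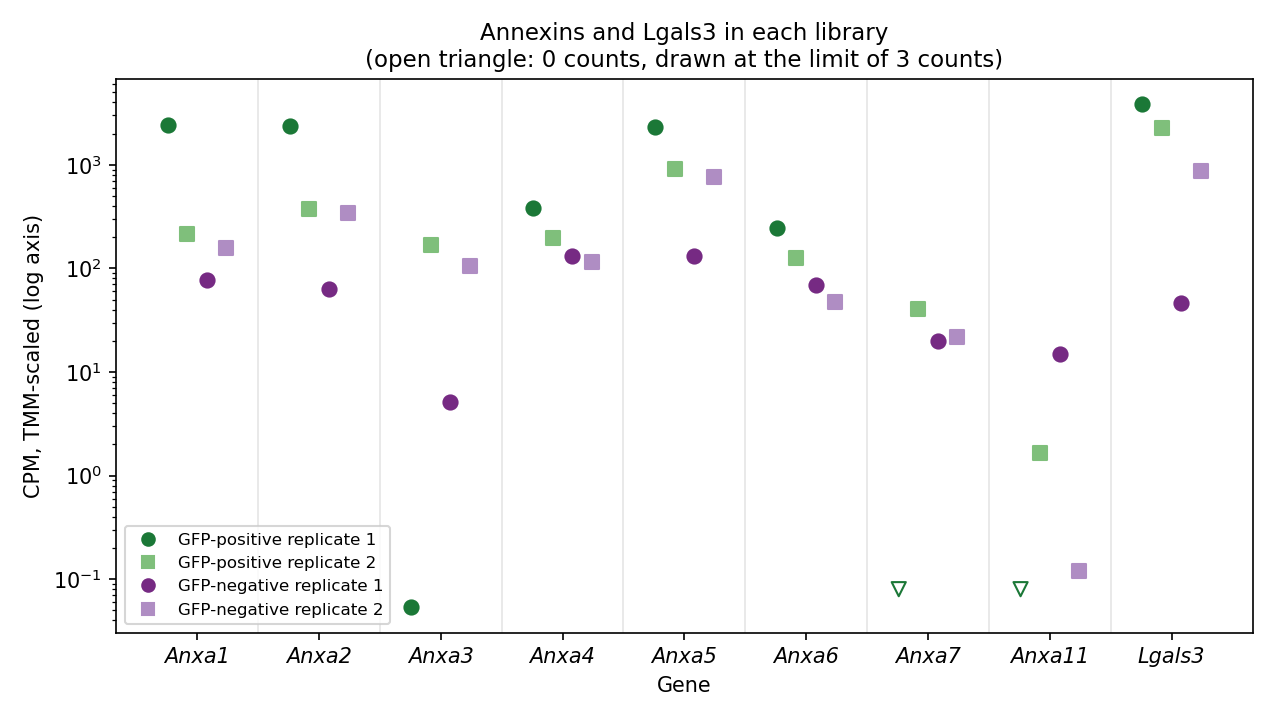
TMM-scaled CPM (log axis) of the 8 annexins and Lgals3 in each of the 4 libraries, with 1 point per library and open triangles for 0 counts, drawn at the limit of 3 counts. The GFP-positive points lie above the GFP-negative points for Anxa1, Anxa2, Anxa4, Anxa5, Anxa6 and Lgals3, while Anxa3, Anxa7 and Anxa11 are near or at 0 in GFP-positive replicate 1.

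Lgals3 lies on chromosome 14 (mm10) from 47367751 to 47386160. It stood at 3840 and 2268 CPM with GFP and 46 and 873 CPM without GFP. Both GFP-positive libraries were above both others, and GFP-negative replicate 1 was far below the remaining 3. The fitted log2 change was -2.73 ± 1.02 (SE, n = 2 per group; edgeR adjusted p = 1.0). Its unadjusted p of 0.00734 ranked 55th of the 16301 genes. The GFP-positive libraries differed 1.69-fold from each other and the GFP-negative libraries 19.0-fold, so the spread lay within the GFP-negative group. Leaving out GFP-negative replicate 2 gave a log2 change of -5.98 that passed (edgeR adjusted p = 9.75e-09), where 0.351% of tested genes did. That value rests on GFP-negative replicate 1 alone, with its spread taken from the GFP-positive pair. Without GFP-negative replicate 1 the change was -1.81, and without GFP-positive replicate 1 it was -2.31, with edgeR adjusted p = 1.0 for both; 0.139% and 0.00587% of genes passed there.

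Anxa1 (chromosome 19, 20373428 to 20390944) encodes a ligand of formyl peptide receptors that dampens inflammation. Its levels were 2435 and 214 CPM with GFP and 77.4 and 156 CPM without GFP. The groups did not overlap, but GFP-positive replicate 1 held 11.4 times the level of replicate 2, while replicate 2 was 1.37-fold above GFP-negative replicate 2. The log2 change was -3.50 ± 1.45 (SE, n = 2 per group, edgeR adjusted p = 1.0). It was -0.88 once GFP-positive replicate 1 was left out. A single library therefore set most of its size.

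Anxa2 (chromosome 9, 69453620 to 69491795) encodes the annexin that pairs with S100A10 at the inner face of the cell membrane and binds plasminogen activators at the surface. It had 2359 and 374 CPM with GFP and 63.6 and 342 CPM without GFP. Replicates 2 of the 2 groups were nearly level, at a 1.09-fold difference, and both replicates 1 were extreme in opposite directions. The log2 change of -2.75 ± 1.36 became -0.89 and -3.54 without GFP-positive replicates 1 and 2, and -2.00 and -4.32 without GFP-negative replicates 1 and 2. None of these passed (edgeR adjusted p from 0.112 to 1.0).

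Anxa5 (chromosome 3, 36448923 to 36475894) encodes the phosphatidylserine-binding annexin that forms lattices on membranes and is used as a stain for dying cells. Its values were 2313 and 901 CPM with GFP and 131 and 767 CPM without GFP. Again GFP-negative replicate 1 was lowest, 5.86-fold below GFP-negative replicate 2, whereas GFP-positive replicate 2 and GFP-negative replicate 2 differed 1.17-fold. The log2 change was -1.84 ± 1.19, and it was -1.01 without GFP-positive replicate 1 and -3.54 without GFP-negative replicate 2.

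Anxa4 and Anxa6 varied least. Anxa4 (chromosome 6, 86736840 to 86793584), an annexin of epithelia, had 380 and 197 CPM with GFP and 130 and 115 CPM without GFP. Anxa6 (chromosome 11, 54979108 to 55033445), whose annexin core occurs in tandem, had 244 and 125 against 69.0 and 47.7 CPM. In both genes the 2 libraries of a group lay within 2-fold of each other (1.94-fold and 1.95-fold in the GFP-positive group, 1.13-fold and 1.44-fold in the GFP-negative group). Their log2 changes of -1.23 ± 2.03 and -1.66 ± 2.52 did not pass. The SEs exceed this visible spread because edgeR borrows the spread of other genes, whose common biological coefficient of variation was 1.92. Without GFP-positive replicate 1 the changes were -0.68 and -1.11. The profiles of Anxa4 and Anxa6 were the closest pair among the 7 genes with counts in all 4 libraries, at a distance of 0.51 (Euclidean, between log2 CPM centred on each gene's mean). The next closest were Anxa2 and Anxa5 at 1.04 and Anxa1 and Anxa2 at 1.17.

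Anxa3, Anxa7 and Anxa11 did not follow the others. Anxa3 (chromosome 5, 96793339 to 96845966), known from neutrophil granules, had 2 counts (0.053 CPM) in GFP-positive replicate 1 and 170 CPM in replicate 2, with 5.13 and 104 CPM without GFP. Replicates 2 were high and replicates 1 low in both groups. Anxa7 (chromosome 14, 20455260 to 20480133), linked to granule fusion, had 0 counts in GFP-positive replicate 1, where 3 counts would equal 0.080 CPM. Its other values were 40.7 CPM in the second GFP-positive library, and 19.8 and 21.6 CPM without GFP. The GFP-negative libraries were level, and the GFP-positive libraries lay on either side of them. Anxa11 (chromosome 14, 25842156 to 25886804), which tethers RNA granules to lysosomes, had 0 and 1.66 CPM with GFP and 14.8 and 0.12 CPM without GFP. GFP-negative replicate 1 thus held 123 times the level of replicate 2, where 8 counts were found. The log2 changes were -0.63 ± 3.04, 0.02 ± 4.22 and 3.16 ± 4.79 for Anxa3, Anxa7 and Anxa11. Without GFP-positive replicate 1 they were -1.63, -0.98 and 2.15. Without GFP-positive replicate 2 all 3 passed, at 9.96, 13.55 and 12.08 on the log2 scale (edgeR adjusted p = 0.0156, 0.0120 and 0.0442). In that fit 45.2% of tested genes passed, so the calls are near the background.

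**Figure D2:**
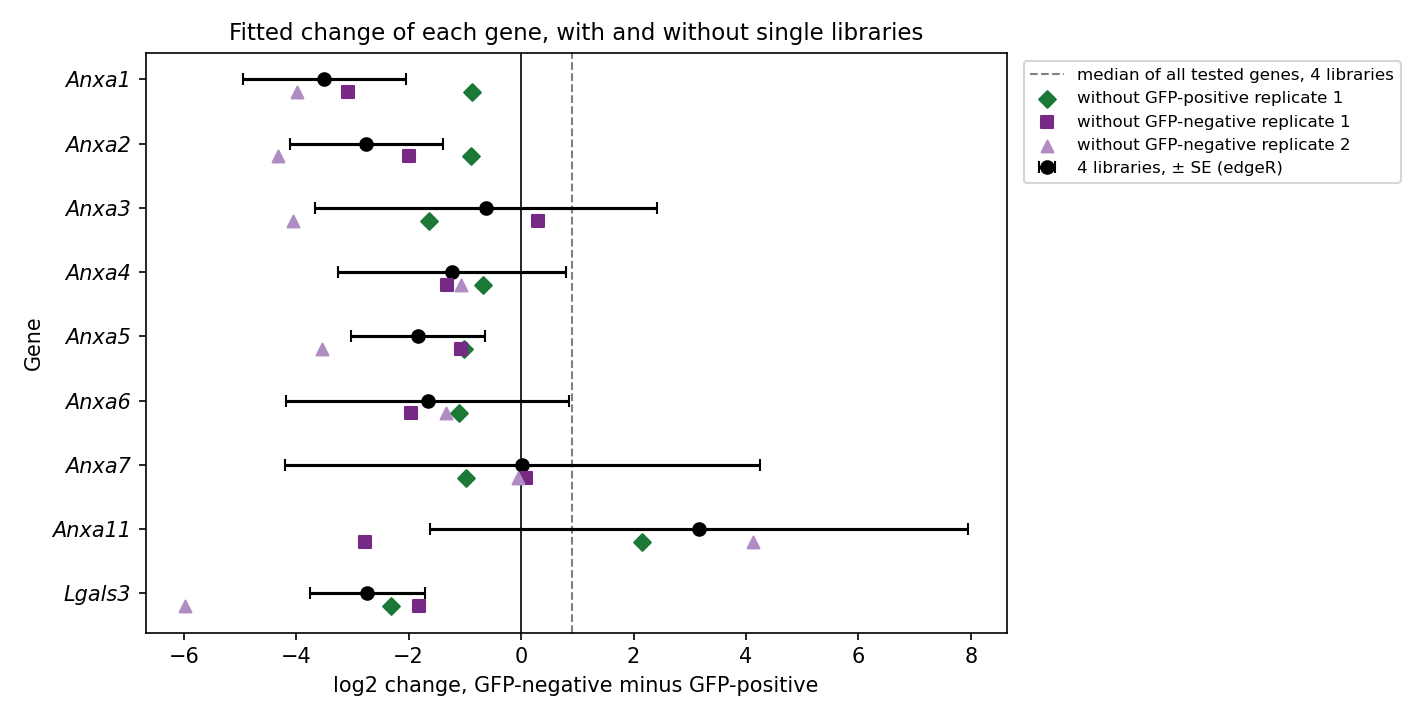
Fitted log2 change of each gene, GFP-negative minus GFP-positive, with black points and bars for all 4 libraries ± SE and coloured points for fits without GFP-positive replicate 1, GFP-negative replicate 1 or GFP-negative replicate 2 (fits without GFP-positive replicate 2 are not drawn); the dashed line is the median of all tested genes, 0.91. Anxa1 and Anxa2 move from -3.50 and -2.75 to -0.88 and -0.89 without GFP-positive replicate 1, and Lgals3 moves to -5.98 without GFP-negative replicate 2.

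Single libraries were also compared. GFP-positive replicate 2 and GFP-negative replicate 2 gave the same sign for all 9 genes, each lower in the GFP-negative library. Among the 5492 genes with counts in all 4 libraries, 51.5% were lower there. The log2 difference ran from -0.13 for Anxa2 to -3.79 for Anxa11, and was -1.38 for Lgals3 and -1.39 for Anxa6. This is 1 library against 1, without a replicate check. GFP-negative replicate 1 was below GFP-positive replicate 2 for 8 of the 9 genes, Anxa11 being the exception at a log2 difference of 3.15, and for 53.8% of the 5492 genes. Anxa7 and Anxa11 are not among the 5492, as they had no counts in GFP-positive replicate 1. For neither pair of libraries was the share among abundant genes alone computed.

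Levels between genes were compared by FPKM, which divides by gene length. Lgals3 had the highest mean FPKM, 687, followed by Anxa5 at 428, Anxa1 at 170, Anxa2 at 147, Anxa4 at 36.4, Anxa6 at 33.4, Anxa3 at 15.9, Anxa7 at 3.23 and Anxa11 at 1.29. Lgals3 led in 3 of 4 libraries, with 1335 and 990 FPKM in GFP-positive libraries and 391 FPKM in GFP-negative replicate 2. In GFP-negative replicate 1 it stood at 33.5 FPKM, below Anxa5 at 99.6, Anxa4 at 37.9 and Anxa1 at 35.9 FPKM. Anxa5 exceeded Anxa1 and Anxa2 in all 4 libraries. The order of Anxa1 and Anxa2 and that of Anxa4 and Anxa6 each changed between libraries. Anxa6 was just above Anxa4 in the GFP-positive libraries (53.7 and 34.6 against 52.9 and 34.3 FPKM). In the GFP-negative libraries it was below Anxa4 (31.8 and 13.5 against 37.9 and 20.6 FPKM). Whether these neighbours differ in level was not tested. Lgals3 ranked at the 99.8th and 99.7th percentile of all symbols in the GFP-positive libraries, and at the 89.4th and 98.9th in the GFP-negative libraries.

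Macrophage genes moved with these genes. Of 23 macrophage and myeloid markers 22 were in the table; 3 were called lower in the GFP-negative group (Chil3, Lyz2 and Ctss, log2 changes -5.15 ± 0.54, -2.79 ± 0.43 and -3.10 ± 0.66; 0.092% of tested genes were called lower), and all 22 had fitted changes below 0 (median log2 change -3.08). Their summed level was 127352 and 74994 CPM with GFP and 1373 and 24881 CPM without GFP. The summed level of the 9 genes was 11571 and 4291 CPM against 557 and 2428 CPM. GFP-positive replicate 1 was highest and GFP-negative replicate 1 lowest in both sums. The same held for the erythroid, hepatocyte, airway, membrane repair, annexin partner and non-neuroendocrine state sums, so this order was not particular to macrophage genes. Lyz2 and Chil3 carried the macrophage order within the GFP-positive group. Without them, a choice made after seeing the data, the sum was 41288 and 48614 CPM with GFP and 706 and 15039 CPM without GFP, and 10 of the 22 markers were higher in GFP-positive replicate 2 than in replicate 1. Without GFP-positive replicate 1 none of the 22 was called (edgeR; 0.00587% of genes were), with a median of -2.68. The macrophage markers at 0 counts were Itgax and Siglecf in GFP-positive replicate 1 and Siglecf in GFP-negative replicate 2. The part of the macrophage markers in the annexin and Lgals3 values was not tested. In bulk samples, fewer cells of a type and less RNA per cell cannot be told apart.

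By the rule on likeness, the profile closest to Lgals3 over the 4 libraries, among 4621 genes with counts in all of them and a mean of 5 CPM or more, was that of Lyz2, the lysozyme of myeloid cells. Lyz2 had 43154 and 19819 CPM with GFP and 480 and 8635 CPM without GFP, at a distance of 0.26. The ratio of Lgals3 to Lyz2 in FPKM was 0.0630 and 0.0811 with GFP and 0.0678 and 0.0716 without GFP. It varied little while Lgals3 itself covered a range from 33.5 to 1335 FPKM. Lyz2 was picked for its closeness in these same libraries, so the steady ratio restates that pick and is no further result. Scimp and Ctsh followed at 0.31 and 0.34. Closest to Anxa5 were Asl, Lsp1 and Lamtor2 (0.24, 0.34 and 0.36), and closest to Anxa1 were Klf9, Tmem104 and Syk (0.23, 0.28 and 0.39). With 4 libraries and 4621 genes, close profiles are found for many genes, and these distances are a description only.

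**Figure D3:**
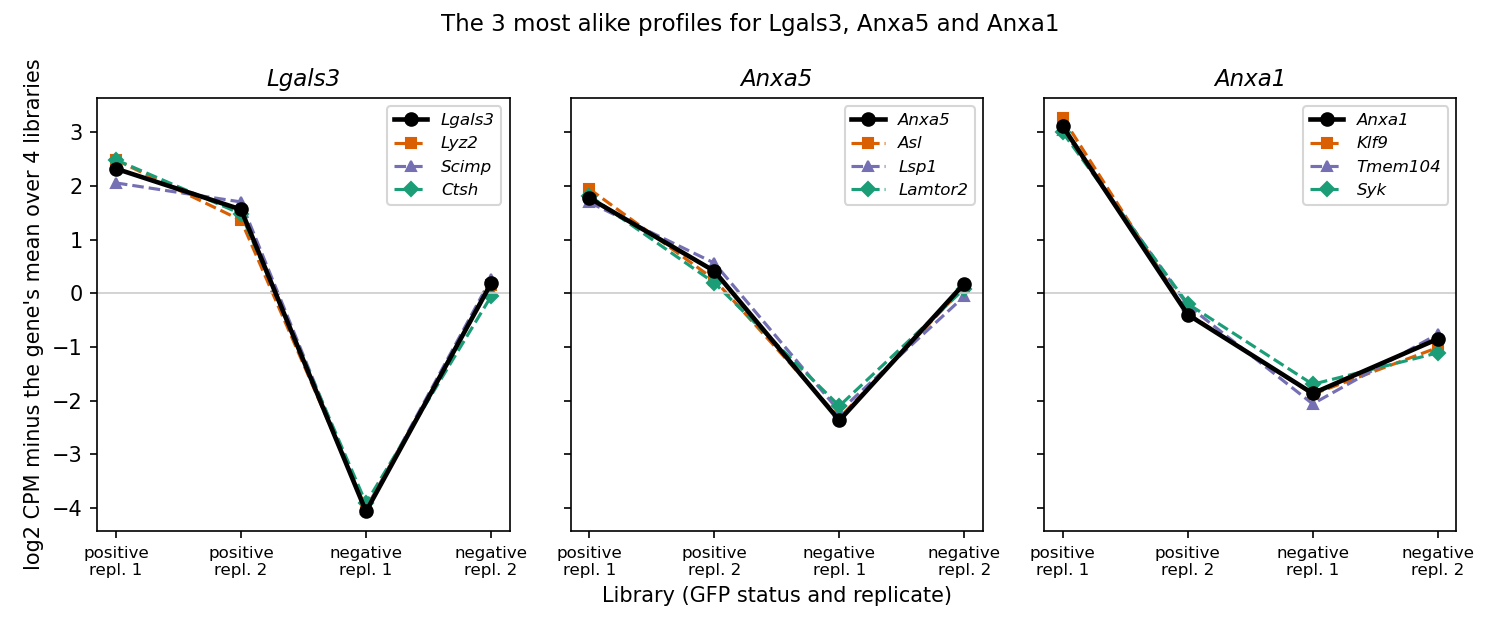
Log2 CPM minus the gene's own mean in the 4 libraries for Lgals3, Anxa5 and Anxa1 (black) and the 3 genes closest to each (dashed); lines only join the points of a gene. Lgals3 and Lyz2 run together and are lowest in GFP-negative replicate 1, while Anxa1 stands out upward in GFP-positive replicate 1.

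Other cell types were read from their markers too. The 6 erythroid genes summed to 45562 and 14336 CPM with GFP and 1573 and 5395 CPM without GFP, and 2 were called lower (Hbb-bs and Hba-a1). The hepatocyte genes (4 in the table; Alb, Apoa2 and Cyp2e1 called lower) summed to 27262 CPM in GFP-positive replicate 1 and 23.5 to 319 CPM elsewhere. Of all tested genes, 0.092% were called lower. Without GFP-positive replicate 1 the median log2 change moved from -4.14 to -2.11 for the erythroid genes. For the hepatocyte genes it moved from -14.50 to -1.38, and for all tested genes from 0.91 to 0.29. Epithelial genes (8) summed to 1328 and 483 against 3079 and 838 CPM, and neuroendocrine genes (20) to 4777 and 2096 against 6574 and 4030 CPM. Calca, a peptide gene, gave 3073 CPM of the neuroendocrine sum in GFP-positive replicate 1. Without it, also a choice made after seeing the data, that sum was 1704 and 1746 against 3831 and 3541 CPM. Those epithelial and neuroendocrine sums were highest in GFP-negative replicate 1, the library with the lowest sum of annexins and Lgals3. No gene of the epithelial, neuroendocrine, neutrophil (7 tested), B and plasma cell (9), T and NK cell (7), endothelial (6), fibroblast and mesothelial (6), alveolar (11) or airway (6) lists was called by edgeR in either direction. The smallest p among neuroendocrine genes belonged to Scg2, a granin, with 0.21 and 33.2 CPM with GFP and 787 and 84.1 CPM without GFP. Whether any of these cell types bears on the annexin values was not tested.

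**Figure D4:**
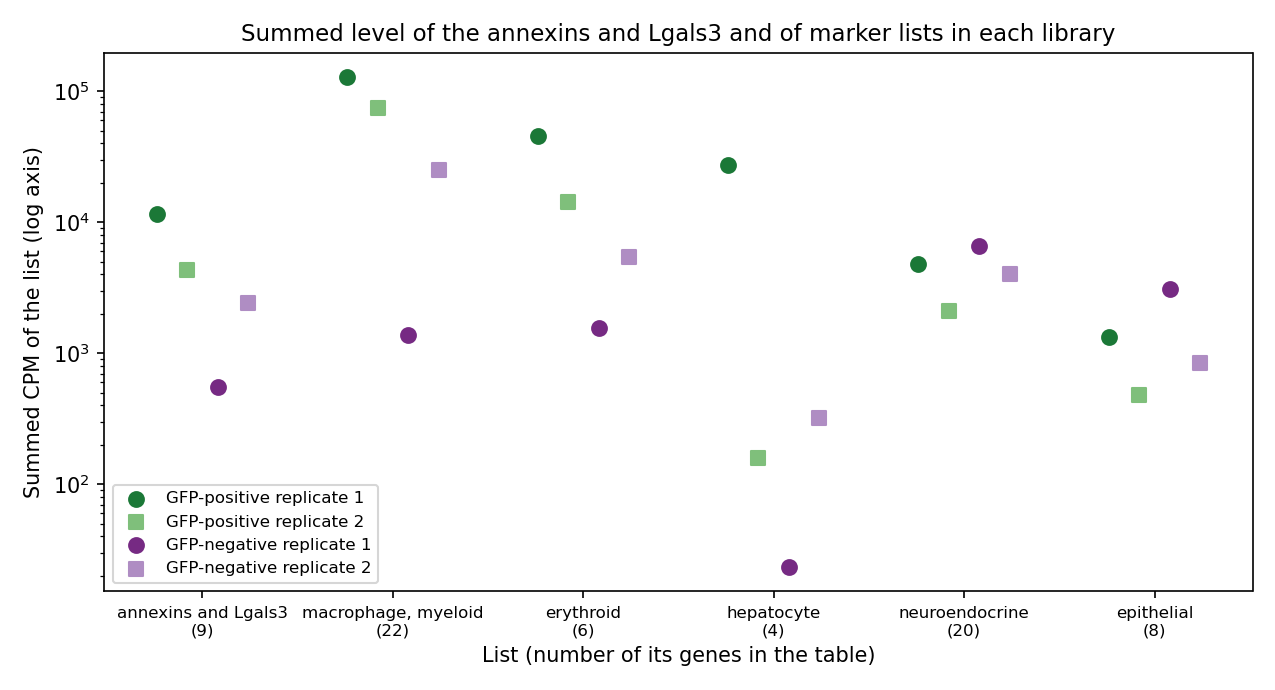
Summed TMM-scaled CPM (log axis) of the 9 annexin and Lgals3 genes and of 5 marker lists in each library, with 1 point per library and list. The annexin and Lgals3, macrophage, erythroid and hepatocyte sums are each highest in GFP-positive replicate 1 and lowest in GFP-negative replicate 1. The neuroendocrine and epithelial sums are highest in GFP-negative replicate 1.

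Among partners and receptors of annexins, 10 of 12 listed genes were in the table and 0 were called; 9 had fitted changes below 0 (median -1.99). The groups of 6 did not overlap, with GFP-negative lower, against 18.4% of genes with counts in all 4 libraries and 26% of the abundant ones. Fpr1, Fpr2 and Plat lie outside both sets, having no counts in GFP-positive replicate 1. S100a10, the partner of Anxa2, had 128 and 118 CPM with GFP and 10.1 and 161 CPM without GFP. The groups overlapped, and S100a10 did not share the high level of Anxa2 in GFP-positive replicate 1. Its FPKM ratio to Anxa2 was accordingly 0.167 and 0.971 with GFP and 0.487 and 1.45 without GFP. S100a11, which binds Anxa1, had 260 and 188 against 19.0 and 47.9 CPM, S100a6 305 and 200 against 8.75 and 144 CPM, and S100a4 223 and 62.2 against 9.13 and 19.1 CPM. In these 3 calcium-binding proteins of the S100 family the groups did not overlap, GFP-negative being lower (log2 changes -2.74 ± 2.56, -1.73 ± 2.24 and -3.34 ± 3.16).

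The receptors of Anxa1 were low in both replicates 1. Fpr1 had 0 and 51.6 CPM with GFP and 1.71 and 21.7 CPM without GFP, and Fpr2 0 and 6.62 against 0.63 and 2.57 CPM. Both formyl peptide receptors had 0 counts in GFP-positive replicate 1, the library with the highest Anxa1, as did 11683 of all 17746 symbols. On the plasminogen side, Plau, the urokinase gene, had 372 and 24.7 against 0.46 and 4.93 CPM (a fitted change of -6.20 ± 3.29, and -3.20 without GFP-positive replicate 1). Its receptor Plaur had 1242 and 531 against 27.1 and 346 CPM (-2.25 ± 1.53, and -1.36 to -4.95 without single libraries). Plat, the tissue activator, had 0 and 7.81 against 4.30 and 9.24 CPM. Ahnak, a large scaffold bound by the complex of Anxa2 and S100A10, had 140 and 22 against 5.98 and 8.61 CPM. Plau, Plaur and Ahnak had groups that did not overlap, and Plat had groups that did. Fpr3 and Plg had no symbol in the table.

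Other galectins and galectin-3 ligands gave 0 calls among 9 tested genes, 5 with fitted changes below 0 (median -0.03). Lgals9, a galectin with paired sugar-binding domains, had 1157 and 703 CPM with GFP and 31.2 and 163 CPM without GFP, with a log2 change of -3.26 ± 1.62 (unadjusted p = 0.0444, edgeR adjusted p = 1.0). Lgals8, which also senses damaged vesicles, had 786 and 51.6 against 38.1 and 23.3 CPM, and its change of -3.77 became -0.76 without GFP-positive replicate 1. Lgals1 behaved differently: it had 741 and 850 against 39.8 and 1579 CPM, and a log2 change of 0.03 ± 1.26. Its FPKM ratio to Lgals3 was 0.397 and 0.771 with GFP and 1.78 and 3.72 without GFP, so the 2 groups did not overlap in that ratio. The groups overlapped in the other partner ratios computed. To Lgals3, Lgals9 had ratios of 0.262 and 0.270 with GFP and 0.590 and 0.163 without GFP. Lgals3bp had 0.0288 and 0.483 against 0.564 and 0.141. Whether the ratio of Lgals1 to Lgals3 differs between groups was not tested, and no share over all gene pairs was computed. Lgals3bp, the secreted galectin-3 binding protein, was highest in the second GFP-positive library (170 and 1678 with GFP, 39.7 and 189 CPM without GFP). Lgals4, Lgals12, Lgalsl, Trim16 and Mgat5 stayed under 37 CPM in every library.

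Of 33 listed membrane repair genes, 29 were tested and 0 called, with 16 fitted changes below 0 and 13 above (median -0.20). The 2 with the smallest p were Chmp4c, a subunit of the ESCRT-III scission machinery, with 0 counts in each GFP-positive library and 1.68 and 0.66 CPM without GFP, and Asah1, the lysosomal acid ceramidase, at 1698 and 365 against 96.6 and 137 CPM. Fitted changes of repair genes outside the annexins thus lay on both sides of 0. However, 15 of the 29 had 0 counts in GFP-positive replicate 1, as did 11683 of all 17746 symbols. How far these zeros set the changes above 0 was not tested. The list of the non-neuroendocrine state, which shares S100a6, Ahnak and Lgals1 with the lists above and Cav1 with membrane repair, had 14 of 17 tested members below 0 (median -2.60) and 0 called. Its smallest p values were those of Tgfbi, an adhesion protein of the matrix (758 and 87.5 against 33.2 and 7.63 CPM), and Cav1, the caveolin (482 and 5.0 against 4.54 and 6.94 CPM). The change of Cav1 was -5.41, and 0.19 without GFP-positive replicate 1. Without GFP-positive replicate 1 the list's median was -1.38, that of the 9 annexin and galectin-3 genes -0.98 and that of all tested genes 0.29.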

How the data were processed

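Per the labels' protocols, cDNA was made from picogram amounts of RNA by oligo(dT) priming and template switching, amplified by PCR and sequenced in pairs; amplification without molecular identifiers makes counting errors too small. The authors deposited whole-number counts per gene symbol and FPKM values (counts per gene length and library size), per the file headers. The tools named for mm10 per the submitters' processing notes are HISAT2 2.2.1, StringTie 2.1.6, cutadapt 1.9, edgeR and DESeq2; the sources used here do not give the counting program or how strand and shared reads were handled.

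Counts were fitted in R 4.3.3 with edgeR 4.0.16 (filterByExpr with a minimum count of 10, TMM factors 0.722 and 0.944 for GFP-positive and 1.54 and 0.956 for GFP-negative libraries, glmQLFit and glmQLFTest on the group, Benjamini-Hochberg over 16301 genes, threshold 0.05). Each SE was the size of the log2 change over the root of the F statistic. At 0 counts a limit of 3 counts was used, for counting error only. Gene positions are from GENCODE M21 and promoters from RefSeq. Alternatives included limma 3.58.1 and DESeq2 1.42.0. Scripts were tested on simulated data with a much smaller spread than these libraries show, so that test does not tell what could be detected here. Where a fit kept a lone library, its spread was assumed to be that of the other group. The genes described and all lists were chosen with earlier results of these data known. Named were all 9 genes, all partners, annexins and galectins of the lists, up to 4 called or the 2 smallest-p genes of the neuroendocrine, non-neuroendocrine and repair lists, and the 3 closest profiles of the 3 genes with the highest mean FPKM; marker lists without a called gene are given by counts and sums. A gene that this rule names in the neuroendocrine list is not reported here.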

Additional observations from a re-analysis of the deposited data

How the results depend on the processing

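Across 17 alternatives the log2 changes of Anxa1, Anxa2, Anxa4, Anxa5, Anxa6 and Lgals3 stayed below 0. The alternative at an adjusted p of 0.1 moved only the threshold, so its log2 changes are those of the main fit by design. The number of the 9 genes called, 0, remained 0 in all but 3 of the 17: limma on log2(FPKM + 0.1) called 1 (Lgals3, limma adjusted p = 0.00905), where 0.258% of genes passed, and leaving out each library gave 0 to 3. The median of all genes was 0.91, and 1.12, 1.33 and 0.43 under DESeq2 size factors, library totals and upper quartile scaling. Under upper quartile scaling the changes of these 6 genes ran from -7.59 to -10.28; that quartile was 10 counts in GFP-positive replicate 1 and 1993 to 4131 in the others. Called genes of the pathway and marker lists numbered 8 of 175 tested, where 0.0982% of all genes passed. They numbered 1 among genes with counts in all 4 libraries (0.091% of all), 0 with upper quartile scaling (0%), 4 with DESeq2's Wald test (0.258%), 0 with limma-voom (0.0245%), 16 and 4 with limma on FPKM at pseudocounts of 0.1 and 5 (0.258% and 0.0675%), and 0 to 73 without single libraries (0 without GFP-positive replicate 1, 73 of 177 without GFP-positive replicate 2 and 19 without GFP-negative replicate 2, where 0.00587%, 45.2% and 0.351% of all genes passed). What made these numbers differ between settings was not tested.

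Among the 9 genes, signs reversed for Anxa3, Anxa7 and Anxa11, which are near or at 0 counts in GFP-positive replicate 1. Anxa3 moved from -0.63 to 2.82 with a replicate block, 2.56 in limma-voom, and 1.77 and 0.44 in limma on FPKM at pseudocounts of 0.1 and 1; without single libraries it ran from -4.06 to 9.96, and was 0.30 without GFP-negative replicate 1. Anxa7 ran from -0.98 (without GFP-positive replicate 1) to 13.55, with -0.05 without GFP-negative replicate 2, and Anxa11 from -2.77 (without GFP-negative replicate 1) to 12.08. The replicate block called 0 of the 9 genes and 10 genes of the other lists, where 0.129% of all genes passed. The labels do not say that a number pairs samples, and same-numbered libraries had a correlation of -0.073 in their deviations from the group means over 16301 genes.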

Other observations

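A pair of further annexin genes was in the table. Anxa8, a close relative known from surface epithelia, had 0 and 12.4 CPM with GFP and 1.66 and 31.1 CPM without GFP, and Anxa13, an annexin of the gut and kidney, 0 and 3.18 against 0.30 and 3.18 CPM. Replicates 2 were above replicates 1 in both groups for both genes, the pattern also seen in Anxa3. Their log2 changes were 1.41 ± 4.48 and 0.13 ± 3.93 (edgeR adjusted p = 1.0). Anxa9 and Anxa10 had no symbol in the table.

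Anxa11os, named after its values were seen, is an antisense transcript on chromosome 14 (mm10) from 25856777 to 25870266, inside Anxa11. It had 0 and 92 counts in GFP-positive and 40 and 0 counts in GFP-negative libraries. Anxa11 had 0 and 106 against 1676 and 8 counts in the same libraries. The counts of the 2 genes were alike in GFP-positive replicate 2 and unlike in GFP-negative replicate 1. The kit as described does not mark strand, so reads from any shared exon sequence could not be assigned by strand. Whether the 2 genes share exon sequence was not tested.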
